A study of Mus musculus with 6 samples.

Results

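Cells taken 5 days post infection (dpi) with Tet3 were set against primary embryonic neurons, gene by gene, to show where their expression stood relative to neurons. Members were the array probes that the scanner software marked as well above background on at least 1 of these 2 arrays. They numbered 35044 of the 39429 probes that are not controls (88.9%), of which 32149 were well above background on both arrays, 1103 on the 5 dpi array only and 1792 on the neuron array only. RefSeq accessions named 24944 members (71.2%), for 18954 genes, and 18918 of these had a value.

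The 5 dpi array holds RNA of mouse embryonic fibroblasts (MEF) from E13.5 embryos of the outbred ICR strain, labelled as neurons induced by Tet3. They received adenoviral supernatants on 2 successive days. Part of their medium was replaced by neuronal medium with 20 µM forskolin, an activator of adenylyl cyclase, on day 3 and day 5 after the repeat infection. The labels do not say whether the 5 dpi cells were taken before or after the later change. The neuron array holds primary neurons, also of E13.5, with no brain region and no culture time given. The other 4 arrays (MEF and 1, 3 and 7 dpi) serve as context. No virus without Tet3 was among the groups, so Tet3, infection, forskolin and time in culture cannot be told apart. Each group is 1 array, so no difference has a replicate error and none was tested. The error model of the scanner software, which covers the array alone, put a median of 0.204 log2 units on a difference.

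Tet3 is a dioxygenase that oxidises 5-methylcytosine in DNA, the opening step of active demethylation. Fibroblasts express a mesenchymal programme of collagens, matrix proteins and transcription factors such as Twist1 and Prrx1. Neurons instead express proneural and neuronal transcription factors, cytoskeletal proteins such as class III beta-tubulin, and the proteins of synapses and ion channels.

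Values are log2 levels on a scale where the 75th percentile of each array is 0, and a difference is 5 dpi minus neurons. Genes at least 2-fold apart were counted as higher or lower. Where a gene was well above background on 1 array only, its difference is a bound, given as at least so many fold. The direction of a bound is fixed by which array passed the filter, and list counts include bounds unless said otherwise. A bound holds for the deposited values and their background marks only, and other processing could move it. A bound sets the dim array at the higher of its own value and the lowest level measured there well above background, -6.76 at 5 dpi and -6.55 in neurons. At 5 dpi 2781 genes were at least 2-fold higher than in neurons (14.7%), 3905 were at least 2-fold lower (20.6%), and 12232 (64.7%) lay within 2-fold. At 4-fold, 1018 genes were higher (5.38%) and 1884 lower (9.96%), and at 16-fold 252 were higher and 571 lower. The higher genes made up 41.6% of the calls at 2-fold. That share moved with the scaling, to 49.5% after quantile normalization and 61.8% when each array was centred on its median. The median over all genes was -0.04 as deposited, 0.1 after quantile normalization and 0.35 after median centring, and the list medians are to be read against it.

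**Figure D1:**
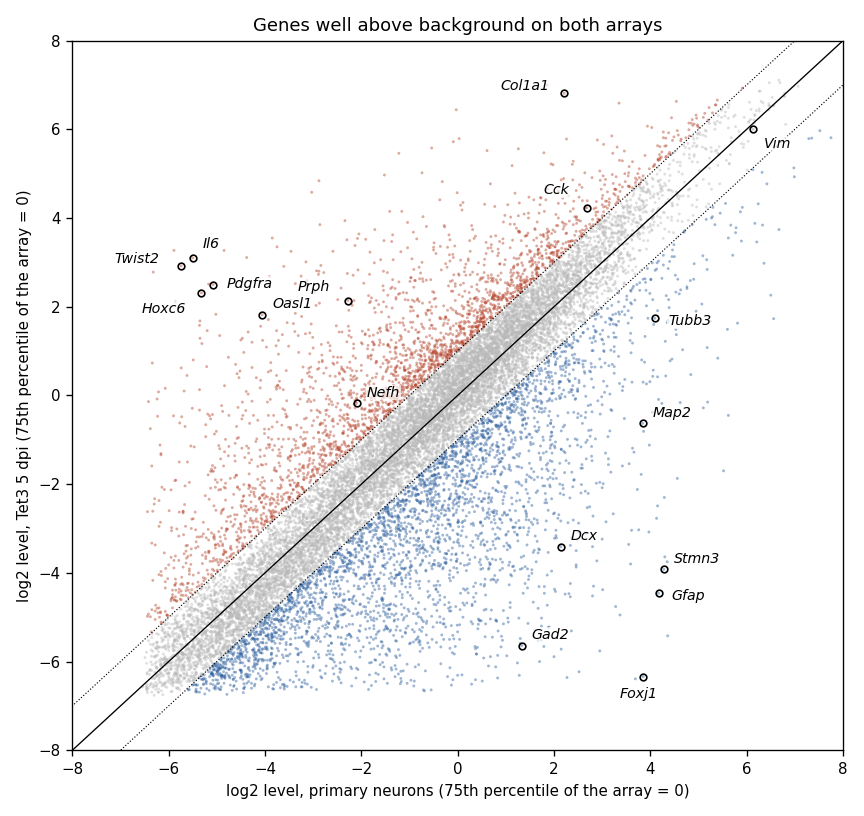
Log2 level of each gene at 5 dpi (vertical axis) against primary neurons (horizontal axis), for genes well above background on both arrays, with the 75th percentile of each array at 0. The solid line marks equal levels and the dotted lines 2-fold; Col1a1 lies 4.61 above the line of equal levels and Foxj1 10.2 below it (a difference of -10.2).

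The arrays of 3, 5 and 7 dpi and of neurons were read in the same scan, and MEF and 1 dpi in another, so levels in MEF and at 1 dpi carry that limit. At 5 dpi 84.3% of probes were well above background, against 86.1% in neurons, and no spot was saturated. Xist, the RNA of the inactive X chromosome, read -1.46 at 5 dpi, -2.22 at 7 dpi and -0.58 in neurons, and was not well above background in MEF, at 1 dpi or at 3 dpi by its brighter probe. Its other probe read -4.19 at 3 dpi, -3.08 at 5 dpi, -3.23 at 7 dpi and -3.11 in neurons, and was not well above background in MEF or at 1 dpi. The Y-linked Eif2s3y read 1.13 in MEF, 0.69 at 1 dpi, 0.47 at 3 dpi, 0.03 at 5 dpi, 0.44 at 7 dpi and -0.26 in neurons. The fibroblast arrays thus differed in Xist while all carried a Y-linked RNA, and the part of embryo pools in any difference among them was not tested.

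Tet3 was higher at 5 dpi than in neurons by its brightest probe, and 5 dpi was the highest of the 6 arrays. That probe read -0.22 in MEF, 1.13 at 1 dpi, 1.74 at 3 dpi, 2.57 at 5 dpi, 0.07 at 7 dpi and -0.72 in neurons, a difference of 3.29 (9.8-fold higher). Its 3 probes disagreed. A further Tet3 probe read -1.99 at 1 dpi, -1.13 at 3 dpi and 0.26 at 5 dpi, and was not well above background in MEF, at 7 dpi or in neurons. The remaining probe read -2.83 at 5 dpi against -2.27 in neurons. Because 1 of these probes was at background on the array labelled 7 dpi, that array is referred to by its label. Of the other Tet enzymes, Tet1 differed by 0.54 and Tet2 by -0.29, both within 2-fold. Their dimmer probes had the opposite sign, at -0.81 for Tet1 and 0.18 for Tet2. Among 24 genes of DNA methylation and demethylation, 4 were higher with Tet3 counted, 2 lower and 18 within 2-fold, with a median of 0.04. The shares higher and lower were 16.7% and 8.33%, against 14.7% and 20.6% of all genes. Gadd45a, a growth arrest gene, was 5.79-fold higher, and the de novo methyltransferase Dnmt3a was 3.6-fold lower, at -0.29 against 1.56.

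The neuron markers were all detectable at 5 dpi and all lower than in neurons. Each of the 8 (Tubb3, Map2, Dcx, Rbfox3, Stmn2, Stmn3, Syt1 and Elavl3) was well above background at 5 dpi, compared with 5 in MEF and 7 at 3 dpi. The log2 of their summed levels was 0.07 in MEF, 0.64 at 1 dpi and 1.72 at 3 dpi. It was 2.25 at 5 dpi, 4.03 at 7 dpi and 6.47 in neurons. Such a sum is led by its brightest members, at 5 dpi by Tubb3. In bulk RNA, fewer cells of a type and less RNA per cell cannot be told apart. Tubb3, class III beta-tubulin, had the smallest difference of the 8, at 1.74 against 4.09, or 5.12-fold lower. Map2, a dendritic microtubule protein, read -0.63 against 3.84 (22.1-fold lower). Doublecortin (Dcx), of migrating young neurons, read -3.41 against 2.14 (47-fold lower). The stathmin Stmn3, which binds tubulin, had the largest difference, at -3.92 against 4.28, or 294-fold lower.

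Most of the pan-neuronal list was lower, with a few exceptions among intermediate filaments. Of its 38 members 29 were lower (76.3%), 4 higher and 5 within 2-fold, with a median of -3.41. The higher ones were Prph, Nefh, Thy1 (3.85-fold), a membrane protein that fibroblasts also make, and Bex1 (2.39-fold), named after its value was seen. Peripherin (Prph), the intermediate filament of peripheral neurons, read -5.68 in MEF, -4.49 at 1 dpi, -4.29 at 3 dpi, 2.14 at 5 dpi, 0.67 at 7 dpi and -2.28 in neurons. It was 21.4-fold higher at 5 dpi than in neurons, and 5 dpi was its highest array. The heavy neurofilament Nefh read -0.18 at 5 dpi, 1.4 at 7 dpi and -2.1 in neurons, and was not well above background in MEF, at 1 dpi or at 3 dpi. It was 3.78-fold higher at 5 dpi than in neurons, and its other probe gave a difference of 1.56 beside 1.92. The medium neurofilament Nefm differed by -0.01, with an outlier spot on 1 of the arrays, and the light chain Nefl was 4.08-fold lower. The neurofilament genes therefore lay on both sides of the neuron array, while Map2, Dcx and the stathmins lay well below it.

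**Figure D2:**
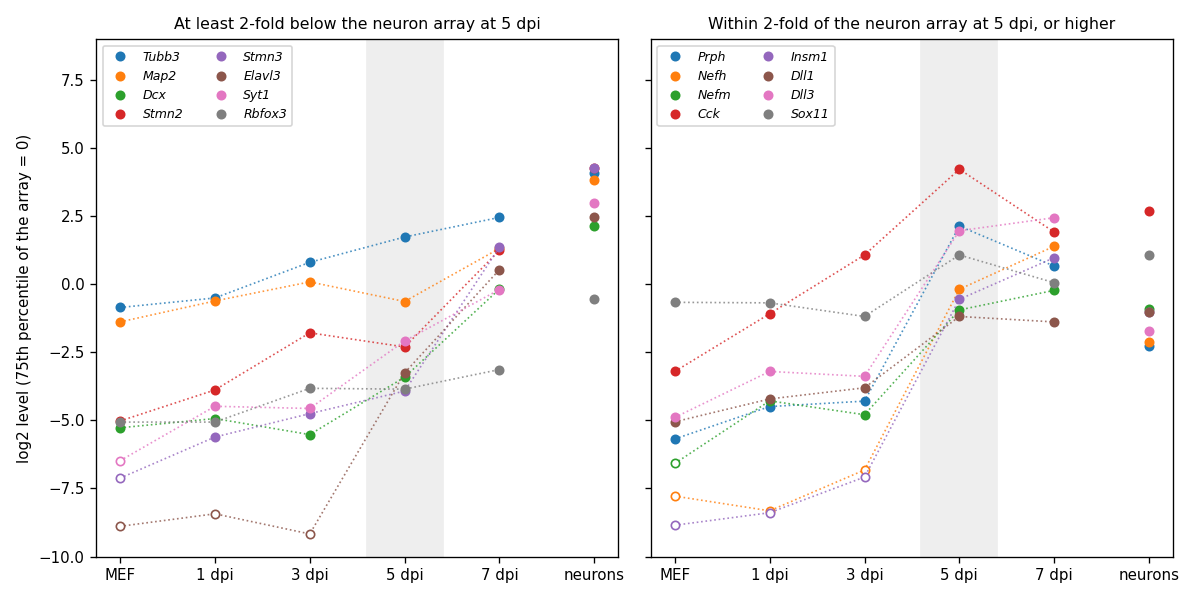
Log2 level (75th percentile of each array at 0) of 16 neuronal genes on the 6 arrays, with the 5 dpi array shaded; open points were not well above background and dotted lines only guide the eye. The 8 genes on the left lay at least 2-fold below the neuron array at 5 dpi, while on the right Prph, Nefh, Cck and Dll3 lay above it and Nefm, Sox11, Insm1 and Dll1 within 2-fold.

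Neuronal transcription factors were divided. Of 30 with a value, 16 were lower, 5 higher and 9 within 2-fold, with a median of -1.04 that ran from -1.36 to -0.03 over the settings tried. Myt1l, a zinc finger factor that represses non-neuronal genes, read -6.42 in MEF, -2.88 at 7 dpi and 0.04 in neurons, and was not well above background at 1 dpi, at 3 dpi or at 5 dpi, and was at least 112-fold lower at 5 dpi than in neurons. The basic helix-loop-helix factors Neurod6 and Neurod1 were 108-fold lower and 26.3-fold lower. Neurog2, a proneural factor, was nearer, at -3.72 against -2.65 (2.11-fold lower), and within 2-fold after quantile normalization (-0.64), median centring (-0.68) and normexp (-0.71). Insm1, a zinc finger factor of newborn neurons and endocrine cells, read -0.55 at 5 dpi, 0.98 at 7 dpi and -1 in neurons, and was not well above background in MEF, at 1 dpi or at 3 dpi. Its levels at 5 dpi and in neurons were within 2-fold. Sox11, a factor of immature neurons, read 1.08 against 1.09. Ebf1 was at least 68.4-fold higher, at -0.45, beside -0.18 in MEF.

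The Notch ligands, which newborn neurons display to their neighbours, went different ways. Dll3 read -4.89 in MEF, -3.2 at 1 dpi, -3.38 at 3 dpi, 1.97 at 5 dpi, 2.45 at 7 dpi and -1.73 in neurons, and was 13-fold higher at 5 dpi than in neurons. Dll1 was within 2-fold, at -1.18 against -1. The receptor Notch1 was 17.3-fold lower, at 1.49 against 5.6. Of the effectors, which repress proneural genes, Hey1 was 14-fold lower and Hes1 3.68-fold higher. Across the 21 Notch genes 6 were higher, 7 lower and 8 within 2-fold, with a median of -0.18. The shares higher and lower were 28.6% and 33.3%, against 14.7% and 20.6% of all genes.

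Peptide and transmitter genes differed by type. Of 32 neuropeptide and prohormone enzyme genes 17 were lower and 4 higher, with a median of -1.2. That median was within 2-fold in 3 of 12 settings, at -0.81 with normexp background correction (13 lower), -0.93 after quantile normalization and -0.8 after median centring. Cholecystokinin (Cck), a gut and brain peptide, read -3.2 in MEF, -1.08 at 1 dpi, 1.08 at 3 dpi, 4.23 at 5 dpi, 1.92 at 7 dpi and 2.68 in neurons, with its highest level at 5 dpi, 2.93-fold higher than in neurons. The other higher members, Penk (12.3-fold), Vip (5.2-fold) and Gal (3.32-fold), are also peptide precursors and are named after their values were seen. Somatostatin (Sst), a peptide of interneurons, was 167-fold lower with an outlier spot, and the secretory granule protein Scg3 was 276-fold lower. Of 29 GABA neuron genes 22 were lower and 2 higher, with a median of -3.79. Without bounds, 18 of 25 were lower and 2 higher, with a median of -3.3. Gad1, which makes GABA from glutamate, read -1.69 at 7 dpi and 1.63 in neurons, and was not well above background in MEF, at 1 dpi, at 3 dpi or at 5 dpi, and was at least 335-fold lower at 5 dpi than in neurons, while Gad2 was 125-fold lower. Of 29 glutamate neuron genes 20 were lower and 0 higher, with a median of -2.79, or 17 of 26 and -2.84 without bounds. The vesicular glutamate transporters Slc17a6 and Slc17a7 were 22.3-fold lower and 11.2-fold lower, while Slc17a8 was within 2-fold as deposited. The Slc17a8 difference ran from -1.97 to 0.41 over the settings tried.

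Of 23 monoamine and acetylcholine genes 6 were higher and 6 lower (26.1% each, against 14.7% and 20.6% of all genes). These genes had a median difference of 0.09. Their median levels were low on both arrays, at -4.11 at 5 dpi and -3.77 in neurons. The median difference ran from 0.02 to 1.3 over the settings tried. The value of 1.3 came from the 5 members with a log2 level of -1 or more, 3 of them higher and 1 lower. Ddc, which makes dopamine and serotonin from their precursors, read 0.17 against -3.69 and was 14.5-fold higher, with -1.18 in MEF. Dbh, which makes noradrenaline, and the choline transporter Slc5a7 were 5.71-fold higher and 5.8-fold higher, while Chat, which makes acetylcholine, was 4.95-fold lower. Of 23 transcription factors of peripheral and spinal neurons 6 were higher and 4 lower, with a median of 0.29. Those shares were 26.1% and 17.4%, against 14.7% and 20.6% of all genes. Without bounds, 4 of 20 were higher and 4 lower, with a median of 0.19. Gata3, Hand2 and Gata2, which act in sympathetic neurons as well as in other lineages, were at least 96.5-fold higher, 15.4-fold higher and 7.11-fold higher. Gata3 read -3.46 in MEF, -2.15 at 1 dpi, -0.69 at 3 dpi, 0.11 at 5 dpi and -2.37 at 7 dpi, and was not well above background in neurons. Phox2a, a factor of autonomic neurons, was within 2-fold, at -4.64 against -4.93. Of the 4 lower members Prdm8 lay furthest below, with a difference of -2.97.

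Genes of the synapse were lower, and none of them was 2-fold higher. Of 35 synaptic vesicle and active zone genes 27 were lower and 8 within 2-fold, with a median of -2.4. The vesicle protein genes Sv2a, Cplx1 and Syn2 were 124-fold lower, 96.3-fold lower and 35.3-fold lower. Synapsin 1 (Syn1) read -2.13 in MEF, -2.19 at 1 dpi, -2.56 at 3 dpi, -2.2 at 5 dpi, -0.42 at 7 dpi and 2.56 in neurons, so its level at 5 dpi was close to that of MEF. Of 41 voltage-gated channel genes 28 were lower and 3 higher, with a median of -1.76. Leaving out bounds gave 24 of 37 lower and 3 higher, with a median of -1.71. The sodium channels Scn3a and Scn2a were 53-fold lower and 41.7-fold lower, while Scn4a, the sodium channel of skeletal muscle, was within 2-fold. Axon guidance and adhesion genes were divided, with 22 of 48 lower, 14 higher and 12 within 2-fold. The synaptic adhesion genes Nlgn1 and Nlgn3 were 79.3-fold lower and 68.8-fold lower, while the secreted guidance cue Slit3 was 18.1-fold higher.

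Astrocyte, choroid plexus and ependymal genes had the lowest list medians as deposited. With normexp background correction the choroid plexus and ependymal median was -2.68, above those of GABA neuron (-2.97) and pan-neuronal (-3.47) genes. Of 25 astrocyte and radial glia genes 21 were lower and 0 higher, with a median of -4.43. Of 24 choroid plexus and ependymal genes 21 were lower and 1 higher, with a median of -4.14. With bounds left out, 20 of 23 (median -4.43) and 15 of 18 (median -3.71) were lower. Mlc1, a membrane protein of astrocyte end-feet, read 5.06 in neurons and was not well above background on any other array, at least 3620-fold lower at 5 dpi. With normexp background correction, the differences of Mlc1, Foxj1 and Kcnj10 were -9.47, -8.27 and -7.87 beside -11.82, -10.2 and -10.07 as deposited. Gfap, the astrocyte intermediate filament, read -4.46 against 4.17 (396-fold lower). Foxj1, a factor of motile cilia, read -6.34 against 3.85 (1170-fold lower), the furthest below neurons of the genes measured on both arrays. Transthyretin (Ttr), made by the choroid plexus, read 4.16 in neurons and was at least 1940-fold lower at 5 dpi. The glial potassium channel Kcnj10 and proteoglycan Bcan were 1080-fold lower and 319-fold lower.

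The marker lists show what else the neuron array carried. As the log2 of summed levels, it read 5.41 for 4 astrocyte markers and 5.14 for 3 markers of choroid plexus and ependyma. It read 5.42 for 4 progenitor markers and 2.75 for 4 oligodendrocyte lineage markers. At 5 dpi the same sums were 1.08, -2.99, 2.45 and -0.85. All of the markers summed were well above background on the neuron array. Kl, a further listed marker of choroid plexus and ependyma, had no value and is not in the sum. The longer oligodendrocyte list lay nearer, with 8 of 20 lower, 1 higher, 11 within 2-fold and a median of -0.24. The 7 fibroblast markers were also well above background there, at a sum of 3.67 against 8.81 at 5 dpi. The array labelled primary neurons thus carried markers of several cell types, and their part in the differences was not tested.

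Progenitor genes were mostly lower, with 16 of 26 lower, 3 higher and a median of -2.52, which was -1.23 without the members at a bound. Sox2, a core factor of neural stem cells, read -5.53 in MEF, -4.61 at 1 dpi, -4.67 at 3 dpi and 1.71 in neurons, and was not well above background at 5 dpi or at 7 dpi, and was at least 354-fold lower at 5 dpi than in neurons. Pax6 and the orphan receptor Nr2e1 were at least 24.2-fold lower and at least 301-fold lower. Fabp7, a lipid carrier of radial glia, read -5.24 in MEF, -3 at 1 dpi, -2.95 at 3 dpi, -0.15 at 5 dpi, -2.3 at 7 dpi and 5.19 in neurons. It was 40.5-fold lower at 5 dpi than in neurons, though 5 dpi was its highest level outside neurons. Nestin (Nes), an intermediate filament of progenitors, was within 2-fold, at 2.19 against 1.55, and Vim differed by -0.15.

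Hox genes, which specify position along the body axis and are silent in the forebrain, were mostly higher at 5 dpi where both arrays measured them. Of the 19 Hox genes well above background on both arrays 14 were higher and 1 lower, with a median of 3.25. A further 19 were well above background at 5 dpi only, and so entered through the array where they are high. Their direction is fixed by that choice and their differences are bounds, among them the 8 genes of cluster D other than Hoxd11. Hoxc6 read 2.31 against -5.32 (199-fold higher), and Hoxd8 and Hoxb2 were at least 164-fold higher and at least 153-fold higher. Hoxa9 was within 2-fold, at 2.19 against 2.41, and Hoxd11, named after its value was seen, was 2.37-fold lower. The median level of all 38 was -2.5 in MEF, -1.92 at 1 dpi, -2.07 at 3 dpi, -1.7 at 5 dpi, -1.77 at 7 dpi and -6.35 in neurons, so 5 dpi lay with the other fibroblast arrays.

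Forebrain transcription factors were mostly lower, with 18 of 29 lower, 1 higher and a median of -1.67. The 5 members well above background in neurons only are bounds, with their direction fixed by the filter. Without them 13 of 24 were lower and 1 higher, with a median of -1.48. Fezf2, a factor of deep-layer cortical neurons, was at least 169-fold lower, and the cortical factors Emx1 and Lhx2 were 68.5-fold lower and 32.3-fold lower. Tbr1, a further cortical factor, depended on the probe, with a difference of -5.06 as deposited, -2.57 as the mean over its probes and -0.08 by the probe brightest over the 6 arrays. Lhx8, a factor of basal forebrain cholinergic neurons, was 8.14-fold higher and is named after its value was seen.

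**Figure D3:**
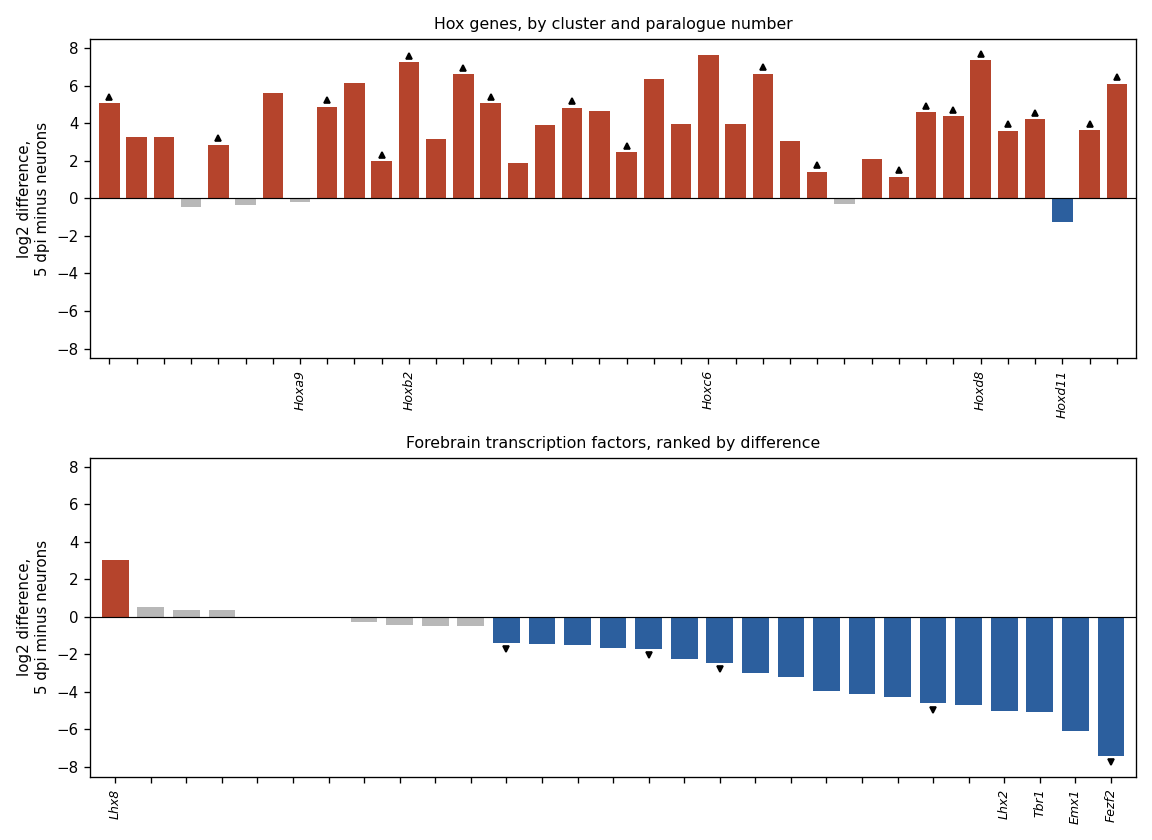
Log2 difference, 5 dpi minus neurons, for 38 Hox genes and 29 forebrain transcription factors, with triangles where the value is a bound and only the genes named in the text labelled. Of the Hox genes 33 lie at least 2-fold above 0, many of them as bounds, up to 7.64 for Hoxc6. Of the forebrain factors 18 lie at least 2-fold below 0, some of them as bounds, down to the bound of -7.4 for Fezf2.

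Fibroblast genes stood near their MEF level at 5 dpi and far above neurons, with a median level of 4.03 in MEF, 3.6 at 5 dpi and -0.54 in neurons. Of 39 fibroblast and extracellular matrix genes 36 were higher than in neurons (92.3%), 1 lower and 2 within 2-fold, with a median of 4.75. The fibrillar collagens Col1a1, Col1a2 and Col3a1 were 24.4-fold, 88.2-fold and 35.4-fold higher. Col1a1 read 6.7 in MEF, 6.86 at 1 dpi, 6.43 at 3 dpi, 6.81 at 5 dpi, 6.8 at 7 dpi and 2.21 in neurons, with all 5 fibroblast arrays high. The growth factor receptor Pdgfra was 192-fold higher, and the matrix protein genes Aspn and Dpt were at least 409-fold higher and at least 64.1-fold higher. Fibronectin (Fn1) was 9.43-fold higher. S100a4, a calcium-binding protein often used as a fibroblast marker, was 2.94-fold lower and read 1.3 in MEF, 2.59 at 1 dpi, 4.96 at 3 dpi, 1.6 at 5 dpi, 0.46 at 7 dpi and 3.16 in neurons. The log2 of the summed levels of the 7 fibroblast markers was 8.75 in MEF, 8.81 at 5 dpi and 3.67 in neurons.

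Mesenchymal transcription factors were higher for 23 of 32 members and lower for 1, with a median of 3.35. Leaving out bounds gave 20 of 28 higher and 1 lower, with a median of 3.19. Twist2, a basic helix-loop-helix factor of mesenchyme, was 404-fold higher, at 2.92 against -5.74, with 1.81 in MEF. Tbx15 was 204-fold higher, and Snai2 and Snai1, which repress epithelial genes, were 96.5-fold higher and 67.2-fold higher. Prrx1 and Twist1 were 20.7-fold higher and 21.1-fold higher. Of 23 repressors of neuronal genes, other barrier factors and neuronal splicing factors, 11 were higher and 1 lower. The number higher was 8 after quantile normalization and 15 after median centring. Rest, which silences neuronal genes outside neurons, was 2.17-fold higher (0.93 log2 units as the mean over its probes and 0.99 with normexp), and the splicing repressor Ptbp1 2.33-fold higher, while its neuronal counterpart Ptbp2 differed by -0.82. Srrm4, a neuronal splicing factor that restrains Rest, was the lower member of the list, 12.4-fold lower. Of 19 chromatin remodelling BAF subunits 12 lay within 2-fold, a share near the 64.7% of all genes, and the neuronal subunit genes Actl6b, Dpf1 and Ss18l1 were 10.4-fold lower, 8.57-fold lower and 4.18-fold lower.

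Contractile genes were higher, and several were above their MEF level. Of 26 myofibroblast and smooth muscle genes 19 were higher and 1 lower, with a median of 1.65. Ankrd1, a nuclear protein of stretched muscle cells, read -4.03 in MEF, -0.74 at 1 dpi, 0.57 at 3 dpi, 3.27 at 5 dpi, 0.26 at 7 dpi and -4.85 in neurons, with its highest level at 5 dpi, 278-fold higher than in neurons. Gamma smooth muscle actin (Actg2) was 29.4-fold higher, and Acta2, the myofibroblast actin, 3.53-fold higher with an outlier spot. Of 31 skeletal and cardiac muscle genes 14 were higher (45.2%, against 14.7% of all genes) and 7 lower (22.6%, against 20.6%). Their median was 0.59. Without bounds, 11 of 28 were higher and 7 lower, with a median of 0.2. Cardiac actin (Actc1) read -2.98 in MEF, -0.55 at 1 dpi, -1.35 at 3 dpi, 1.35 at 5 dpi, 1.71 at 7 dpi and -4.94 in neurons, and was 78.3-fold higher at 5 dpi than in neurons. Cardiac troponin T (Tnnt2) was at least 114-fold higher and embryonic myosin Myh3 16.1-fold higher, while the perinatal myosin Myh8 was 16.9-fold lower, at -5.41 against -1.33. Myog, a factor of muscle differentiation, was within 2-fold with an outlier spot. The log2 of the summed levels of the 4 muscle markers was -1.87 in MEF and 2.19 at 5 dpi. It was 3.44 at 7 dpi and -2.69 in neurons.

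Interferon-stimulated genes, an antiviral set, were higher for 23 of 28 members and lower for 0, with a median of 2.78. Oasl1 read -2.79 in MEF, 0.72 at 1 dpi, 0.5 at 3 dpi, 1.82 at 5 dpi, 0.58 at 7 dpi and -4.06 in neurons, and was 58.9-fold higher at 5 dpi than in neurons. Oas1a, which senses double-stranded RNA, read 2.18 in MEF, 2.22 at 1 dpi, 2.5 at 3 dpi, 2.33 at 5 dpi, 2.1 at 7 dpi and -2.97 in neurons, and was 39.3-fold higher. The first of these was lowest in MEF among the fibroblast arrays, whereas the other was near 1 level on all of them. The interferon regulatory factor Irf7 read -3.59 in MEF, -1.47 at 1 dpi, -0.26 at 3 dpi, -0.46 at 5 dpi, -1.15 at 7 dpi and -5.15 in neurons, and was 25.8-fold higher. Bst2, which tethers virions to the cell surface, was 18.8-fold higher. Antigen presentation genes were higher for 12 of 23 and lower for 1, with a median of 1.16. The class I genes H2-T10 and H2-T23 were 12.6-fold higher and 7.94-fold higher and the immunoproteasome subunit Psmb8 7.31-fold higher, whereas H2-Ab1 of class II was within 2-fold. Closely related class I genes can share probe signal.

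Promoters are shown for single genes of the interferon, muscle and synaptic lists that lay far from the neuron array and hold a motif that was searched for. Syn1 does not stand for its list. RefSeq promoters (GRCm38.p6, 250 bases before to 50 after the start) were at hand for 24 of the 28 interferon-stimulated genes. On either strand 14 of them (58.3%) held GAAA, any 2 bases and GAAA, the core of an interferon-stimulated response element, against 3.99% of the 27025 genes in the table. A CArG box, to which serum response factor binds, was found in 3 of 25 muscle genes with a promoter and in 1.81% of the table, and the palindrome TGACGTCA, to which cAMP-responsive factors bind, in 1 of 26 synaptic genes with a promoter (Syn1) and in 2.03% of the table. The search also covered TGANTCA (N any base) and CAGCTG, and each motif was tried in all 47 lists. TGANTCA was in 9 of 24 interferon, 2 of 25 muscle and 4 of 26 synaptic promoters, and in 8.97% of the table. CAGCTG was in 6 of 24, 11 of 25 and 10 of 26 of them, and in 18.3% of the table. The table also holds genes without a value, and no share was tested against it. A match describes letters and is not a bound site. Capitals mark the matches, of which Oas1a and Bst2 have 2 that overlap. The intervals, each on the minus strand and written 5′ to 3′ along the gene, are chr5:120907476-120907775 for Oas1a, chr8:71537423-71537722 for Bst2, chr2:114052826-114053125 for Actc1 and chrX:20920869-20921168 for Syn1.
Oas1a: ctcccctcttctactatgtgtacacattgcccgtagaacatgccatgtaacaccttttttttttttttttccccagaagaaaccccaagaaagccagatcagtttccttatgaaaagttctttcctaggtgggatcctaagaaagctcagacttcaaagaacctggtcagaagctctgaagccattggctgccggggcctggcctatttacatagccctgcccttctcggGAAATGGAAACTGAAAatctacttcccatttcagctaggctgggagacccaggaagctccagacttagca
Bst2: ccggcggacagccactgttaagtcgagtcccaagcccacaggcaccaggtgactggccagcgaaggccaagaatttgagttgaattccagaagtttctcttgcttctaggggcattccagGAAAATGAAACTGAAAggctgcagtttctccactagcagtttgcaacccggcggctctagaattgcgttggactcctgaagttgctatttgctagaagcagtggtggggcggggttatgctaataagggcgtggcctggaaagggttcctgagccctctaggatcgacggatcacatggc
Actc1: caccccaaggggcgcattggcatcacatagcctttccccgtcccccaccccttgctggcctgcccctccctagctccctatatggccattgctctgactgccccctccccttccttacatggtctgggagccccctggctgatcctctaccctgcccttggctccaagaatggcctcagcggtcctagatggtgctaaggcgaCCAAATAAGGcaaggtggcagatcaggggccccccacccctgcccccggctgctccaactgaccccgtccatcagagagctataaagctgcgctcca
Syn1: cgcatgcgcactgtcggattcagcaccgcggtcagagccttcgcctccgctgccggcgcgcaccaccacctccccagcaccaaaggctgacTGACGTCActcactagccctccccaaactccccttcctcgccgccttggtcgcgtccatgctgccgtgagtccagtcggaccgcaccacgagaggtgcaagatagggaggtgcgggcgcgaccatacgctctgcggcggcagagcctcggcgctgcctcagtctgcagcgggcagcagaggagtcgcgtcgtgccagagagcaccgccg
Counted from the start of the gene, the first match lay at -20 in Oas1a, -130 in Bst2, -47 in Actc1 and -159 in Syn1. The differences from neurons were 5.3 for Oas1a, 4.23 for Bst2, 6.29 for Actc1 and -4.76 for Syn1.

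Inflammatory cytokines and chemokines were higher for 22 of 32 members and lower for 0, with a median of 2.12. With bounds left out, 18 of 27 were higher and 0 lower, with a median of 2.25. The chemokine Ccl11, which attracts eosinophils, read -1.04 in MEF, 0.04 at 1 dpi, -0.97 at 3 dpi, 2.73 at 5 dpi and 2.37 at 7 dpi, and was not well above background in neurons, and was at least 622-fold higher at 5 dpi than in neurons. Interleukin 6 (Il6) read -0.97 in MEF, -2.14 at 1 dpi, -0.76 at 3 dpi, 3.1 at 5 dpi, 0.37 at 7 dpi and -5.5 in neurons, with its highest level at 5 dpi, 386-fold higher than in neurons. The acute phase gene Saa3 was 196-fold higher, the neutrophil chemokine Cxcl5 6.49 log2 units higher and Cxcl3 at least 74.2-fold higher. The prostaglandin synthase Ptgs2 read -3.62 in MEF, -3.37 at 1 dpi, 1.19 at 3 dpi, 1.09 at 5 dpi, -3.31 at 7 dpi and -3.97 in neurons, high at 3 and 5 dpi only. Macrophage genes were higher for 5 of 28 (17.9%) and lower for 8 (28.6%), near the 14.7% and 20.6% of all genes, with a median of 0.11. The log2 of the summed levels of 5 macrophage markers was 6.88 in MEF, 1.5 at 5 dpi and 0.16 in neurons. The sum at 5 dpi came mostly from the receptor Csf1r (1.29 against -0.82 by 1 of its 3 probes, and a difference of 0.22 by the probe brightest over the 6 arrays). The complement genes C1qa and C1qc read -4.35 against -3.18 and -3.54 against -2.05, the other way. The C1qa difference was within 2-fold after quantile normalization (-0.71), median centring (-0.78) and normexp (-0.76). The remaining markers Mrc1 and C1qb differed by 1.29 (0.62 with normexp) and 0.17.

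**Figure D4:**
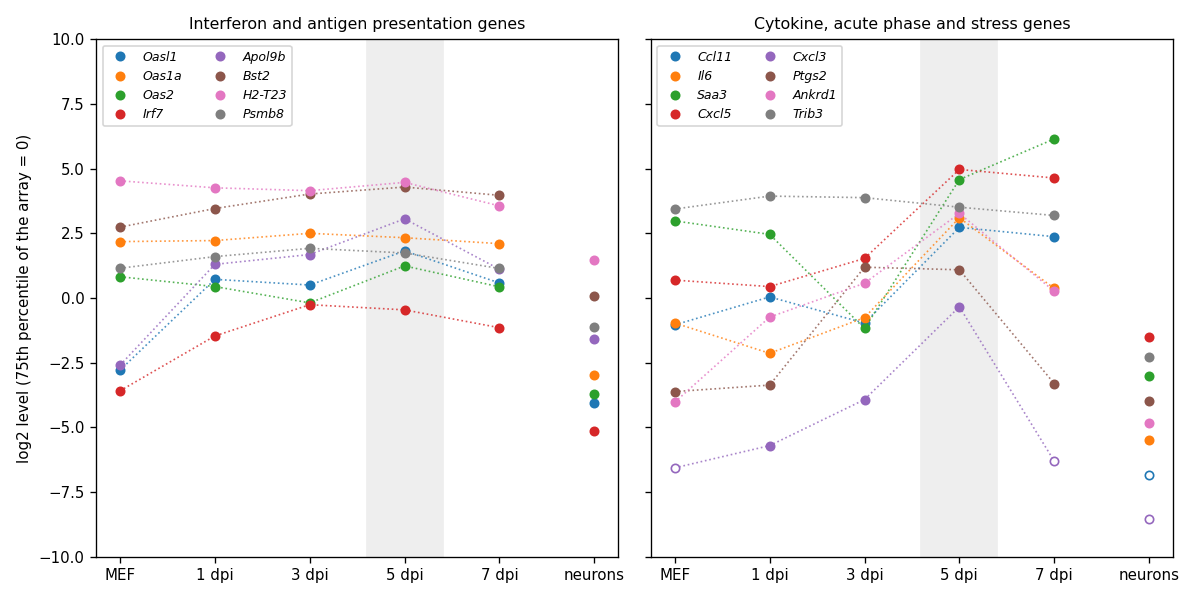
Log2 level (75th percentile of each array at 0) of 8 interferon and antigen presentation genes (left) and 8 cytokine, acute phase and stress genes (right) on the 6 arrays, with 5 dpi shaded, open points where the probe was not well above background, and dotted lines that only guide the eye. Each of the 16 lies higher at 5 dpi than in neurons. Among those with their highest point at 5 dpi are Oasl1, Apol9b, Bst2, Il6, Ccl11, Cxcl3, Cxcl5 and Ankrd1.

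Stress response genes were mostly higher, and cell cycle genes were divided between higher and within 2-fold. Of 26 genes of the unfolded protein and amino acid stress responses 20 were higher and 1 lower, with a median of 1.67. Trib3, a pseudokinase of the stress response, was 56-fold higher, at 3.51 against -2.3, with 3.44 in MEF. The mitochondrial folate enzymes Mthfd2 and Shmt2 were 7.76-fold higher and 5.6-fold higher. Of 37 cell cycle genes 18 were higher, 0 lower and 19 within 2-fold, with a median of 0.92. The mitotic kinases Plk1 and Aurka were 7.55-fold higher and 7.38-fold higher, whereas the replication genes Mcm7 and Tyms differed by -0.1 and 0.09. Of 28 p53 target and arrest genes 11 were higher (39.3%, against 14.7% of all genes), 1 lower (3.57%, against 20.6%) and 16 within 2-fold. Among them, the inhibitors of cyclin-dependent kinases Cdkn1a (with an outlier spot), Cdkn2a and Cdkn1c were 3.36-fold, 8.49-fold and 27.5-fold higher.

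Ribosomal protein genes lay above the neuron array by similar amounts, and most oxidative phosphorylation genes within 2-fold of it. The 50 ribosomal protein differences ran from 0.66 to 1.9, with 31 past 2-fold and a median of 1.07. The count past 2-fold rests on the scaling, with 6 of 50 after quantile normalization (median 0.64) and 50 of 50 after median centring (median 1.47). Of 47 oxidative phosphorylation genes 44 lay within 2-fold, with a median of 0.06. The exceptions were the muscle-type subunits Cox8b (30.6-fold higher), Cox6a2 (2.45-fold higher, but 0.95 log2 units with normexp) and Cox7a1 (2.47-fold lower, but -0.91 after median centring). Of 31 glycolysis and hypoxia genes 13 were higher (41.9%, against 14.7% of all genes), 6 lower (19.4%, against 20.6%) and 12 within 2-fold. The lactate exporter Slc16a3 was 44-fold higher and hexokinase 2 (Hk2) 8.14-fold higher, while the brain-type aldolase Aldoc and the neuronal glucose transporter Slc2a3 were 41.7-fold lower and 14-fold lower.

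Immediate early genes, which neuronal activity and cAMP induce, were divided, with 9 of 23 lower, 6 higher and 8 within 2-fold. Their median was -0.08, with 39.1% lower and 26.1% higher, against 20.6% and 14.7% of all genes. Egr4, Fos and Arc were 19.1-fold, 6.23-fold and 3.59-fold lower, while Ier2 was 3.58-fold higher. Bdnf, a neurotrophin, was within 2-fold, at -0.21 against -0.13, with -1.55 in MEF. Of 22 genes of neurotrophins, GDNF ligands and their receptors 4 were higher, 5 lower and 13 within 2-fold. The shares higher (18.2%) and lower (22.7%) lay near the 14.7% and 20.6% of all genes. The receptors Ntrk3 and Ntrk2 were 28.2-fold lower and 9.2-fold lower, and the ligands Artn and Gdnf 3.48-fold higher and 3.06-fold higher. Imprinted growth genes were higher for 12 of 19 and lower for 2. Dlk1 and Igf2 were 77.6-fold higher and 13.1-fold higher, and the brain-enriched Nnat was 36.9-fold lower.

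**Figure D5:**
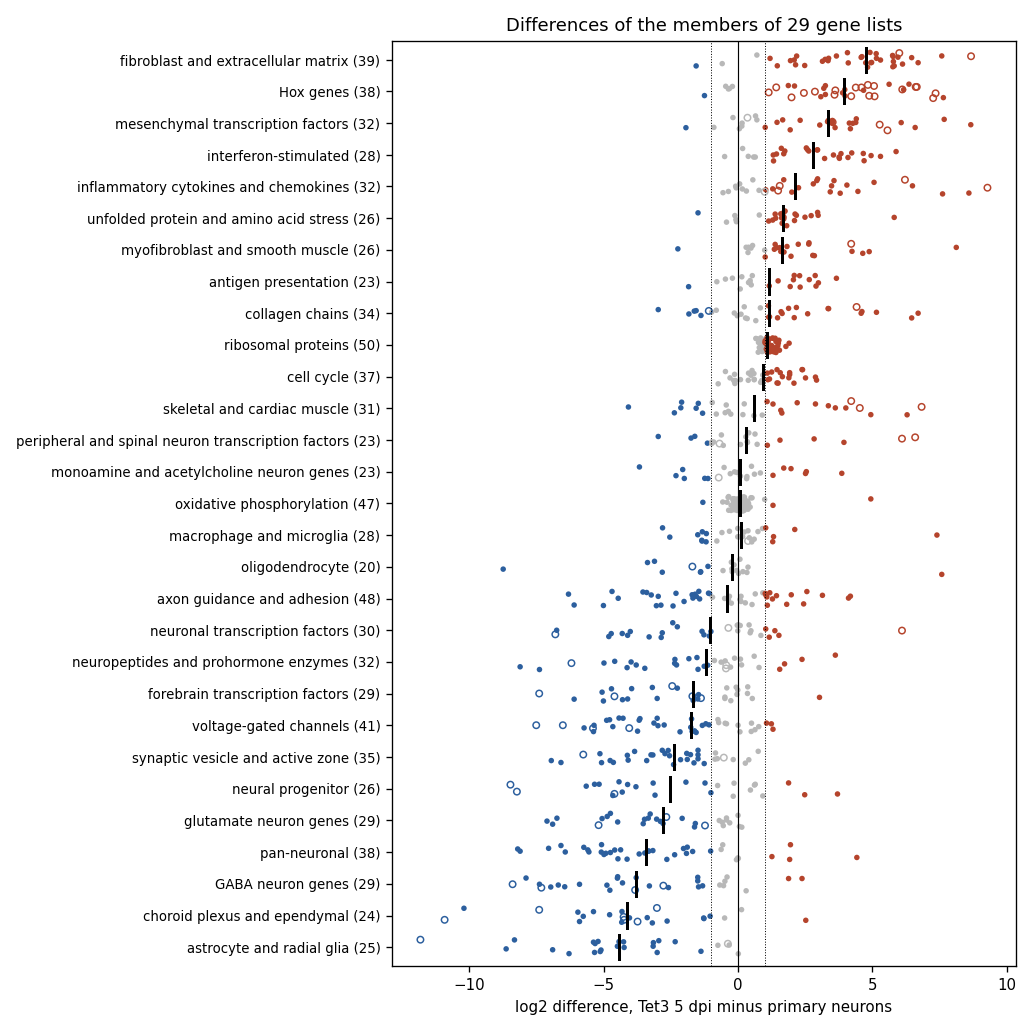
Log2 difference, 5 dpi minus neurons, of each member of 29 gene lists; filled points were measured on both arrays, open circles are bounds, black bars are medians and dotted lines mark 2-fold. The medians run from 4.75 for fibroblast and extracellular matrix genes to -4.43 for astrocyte and radial glia genes, with oxidative phosphorylation genes at 0.06.

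Among the genes furthest above the neuron array stood Lrrc17 (574-fold), Ctla2a (548-fold), the lipid carrier Fabp4 (251-fold) and the surface antigen Ly6a (211-fold). The angiotensin receptor Agtr2 was at least 1890-fold higher and the matrix protease Mmp3 at least 211-fold higher, as deposited. Over the settings tried, the Agtr2 difference ran from 8.76 to 11.9 and that of Mmp3 from 5.7 to 8.33, beside 10.88 and 7.72 as deposited. Agtr2 read 5.89 in MEF, 4.91 at 1 dpi, 1.12 at 3 dpi, 4.33 at 5 dpi and 5.82 at 7 dpi, and was not well above background in neurons, with its lowest fibroblast level at 3 dpi. Among those furthest below stood the neuronal membrane protein Gpm6a (876-fold), the adhesion protein Lrrc4b (262-fold), the trafficking GTPase Rab6b (245-fold) and the factor Olig1 (428-fold). Lrrc4b read -6.03 in MEF, -5.96 at 1 dpi, -5.83 at 3 dpi, -4.76 at 5 dpi, -0.26 at 7 dpi and 3.28 in neurons. Rab6b read -2.69 in MEF, -4.03 at 1 dpi, -4.8 at 3 dpi, -3.64 at 5 dpi, 1.75 at 7 dpi and 4.3 in neurons. For both, the array labelled 7 dpi was the nearest to neurons.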

How the data were processed

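Single-colour Agilent mouse arrays of 6 samples were used, 1 array a group. Before deposit, the intensity values and background marks came from version 11.0.1.1 of Feature Extraction, Agilent's scanner software (source: per the submitters' processing notes and the file headers). The log2 values are those of the table the authors deposited, which matched log2 of the processed intensity minus the 75th percentile of each array. Spot controls were left out. Probes were named by accession through RefSeq (GRCm38.p6), and each gene took the probe with the highest mean over both arrays. Genes on both arrays gave a difference, the rest a bound. No test, p-value or replicate error is possible with 1 array a group, and the number of arrays limits the precision. The genes named were, in each of 47 lists, the 6 furthest from 0 and the 2 nearest to it, the 15 furthest in each direction, the 10 largest bounds in each (both without clone-like names and outlier spots) and fixed genes; others are said to be named after their values were seen. The members and lists were chosen with earlier results of these data known. Alternatives were background correction by normexp with an offset of 50, quantile normalization, median centring, filters, probe rules and a 4-fold threshold. RefSeq promoters matched 14982 genes with a value (79.2%), too few for motif shares over all measured genes, so that check is void and was made only in lists. The differencing was tested on simulated data. Python 3.11.15, pandas 2.3.3, R 4.3.3 and limma 3.58.1 were used. Some single genes are not reported here.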

Additional observations from a re-analysis of the deposited data

How the results depend on the processing

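The counts moved with the scaling and the threshold. Centring each array on its median gave 4601 genes at least 2-fold higher, keeping only genes with a log2 level of -1 or more gave 1990 lower, and a 4-fold threshold gave 1018 higher and 1884 lower. Quantile normalization gave 3199 higher and 3258 lower, and normexp 2359 and 2880. Of the 425 genes the rule named, 315 were past 2-fold, and those 315 had the same sign under each of the 9 alternatives that gave a value. For 30 of them at least 1 alternative ended the call, 17 under normexp, 10 under quantile normalization and 9 under median centring. Fold sizes were less stable than signs: normexp moved 145 of the 315 by more than 1.5 times. Of 23 lists with a median past 2-fold, 23 kept their sign under the 11 list alternatives and 17 stayed past 2-fold under each. No paired analysis was possible because each group is 1 array, and for the same reason no replicate could be left out. Signal near background limits the rest: 431 higher and 757 lower values are bounds, and 62 genes had probes called in opposite directions.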
